A study of Mus musculus with 4 samples.

Results

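The facilitative glucose transporters of the Slc2a family were followed in IMS32, a mouse Schwann cell line made immortal in culture. Schwann cells are the glia that ensheathe axons of peripheral nerves. The members were 10 genes, Slc2a1, Slc2a2, Slc2a3, Slc2a4, Slc2a5, Slc2a6, Slc2a8, Slc2a9, Slc2a10 and Slc2a12, chosen by name from the 31093 gene names that the array design gives to its probes. Probes carried the names of 9 of them, with 2 probes for Slc2a6 and 1 probe for each of the others. No probe was found for Slc2a12 by name or by transcript accession, and this gene was not analysed here. Of the 10 member probes, 9 (from 8 genes) were detected on every array, where detected means that the scanner software marked the probe as well above background. The Slc2a2 probe was not detected on any array.

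Cells were kept for 1 h in DMEM with 5% FBS that held 5 or 15 mM glucose, with 1 mM pyruvate or without it. The groups are named [Glc 5 mM/Pyr (+)] and, without pyruvate, [Glc 5 mM/Pyr (−)], and at high glucose [Glc 15 mM/Pyr (+)] and, again without pyruvate, [Glc 15 mM/Pyr (−)]. Each had 1 one-colour array, so no difference has a replicate check and no test was made. The comparison asks whether withdrawal of pyruvate, at normal or high glucose, went with another transcript level of the transporters that admit glucose to the cell. Levels are log2 intensities after division by the 75th percentile over all probes of that array, and a difference of 1 on this scale is 2-fold. Across the arrays 28470 to 30344 of 39429 probes were detected, and no spot was saturated. All 12 Schwann cell markers examined, including Sox10, S100b and Ngfr, were detected on every array by at least 1 probe, with Erbb3 at an intensity of 15.6 to 22.2. The markers of other cell types were not all at background, since all 4 fibroblast and all 4 macrophage markers were detected on every array.

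Transporters of this family let hexoses cross a membrane down their concentration gradient, without energy input. Members differ in substrate and in place: some sit at the cell surface at all times, some are held in vesicles until a signal such as insulin releases them, and some carry fructose or urate. Uptake through them is followed by phosphorylation by a hexokinase, which traps glucose in the cell.

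None of the 9 detected member probes differed by 2-fold between any pair of conditions compared, and none by 1.5-fold. Among all probes measured in both conditions, 1.17% differed by 2-fold or more without against with pyruvate at 5 mM glucose, and 2.10% did at 15 mM. Between 15 and 5 mM glucose the share was 0.968% with pyruvate and 2.40% without pyruvate. At 1.5-fold these shares were 3.20%, 6.54%, 3.12% and 7.28% in the same order. In RNA from whole cultures, fewer cells with a transcript and less transcript per cell cannot be told apart. A count of 0 among 9 probes cannot be told apart from shares this low, and it does not set the family apart from other genes.

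**Figure D1:**
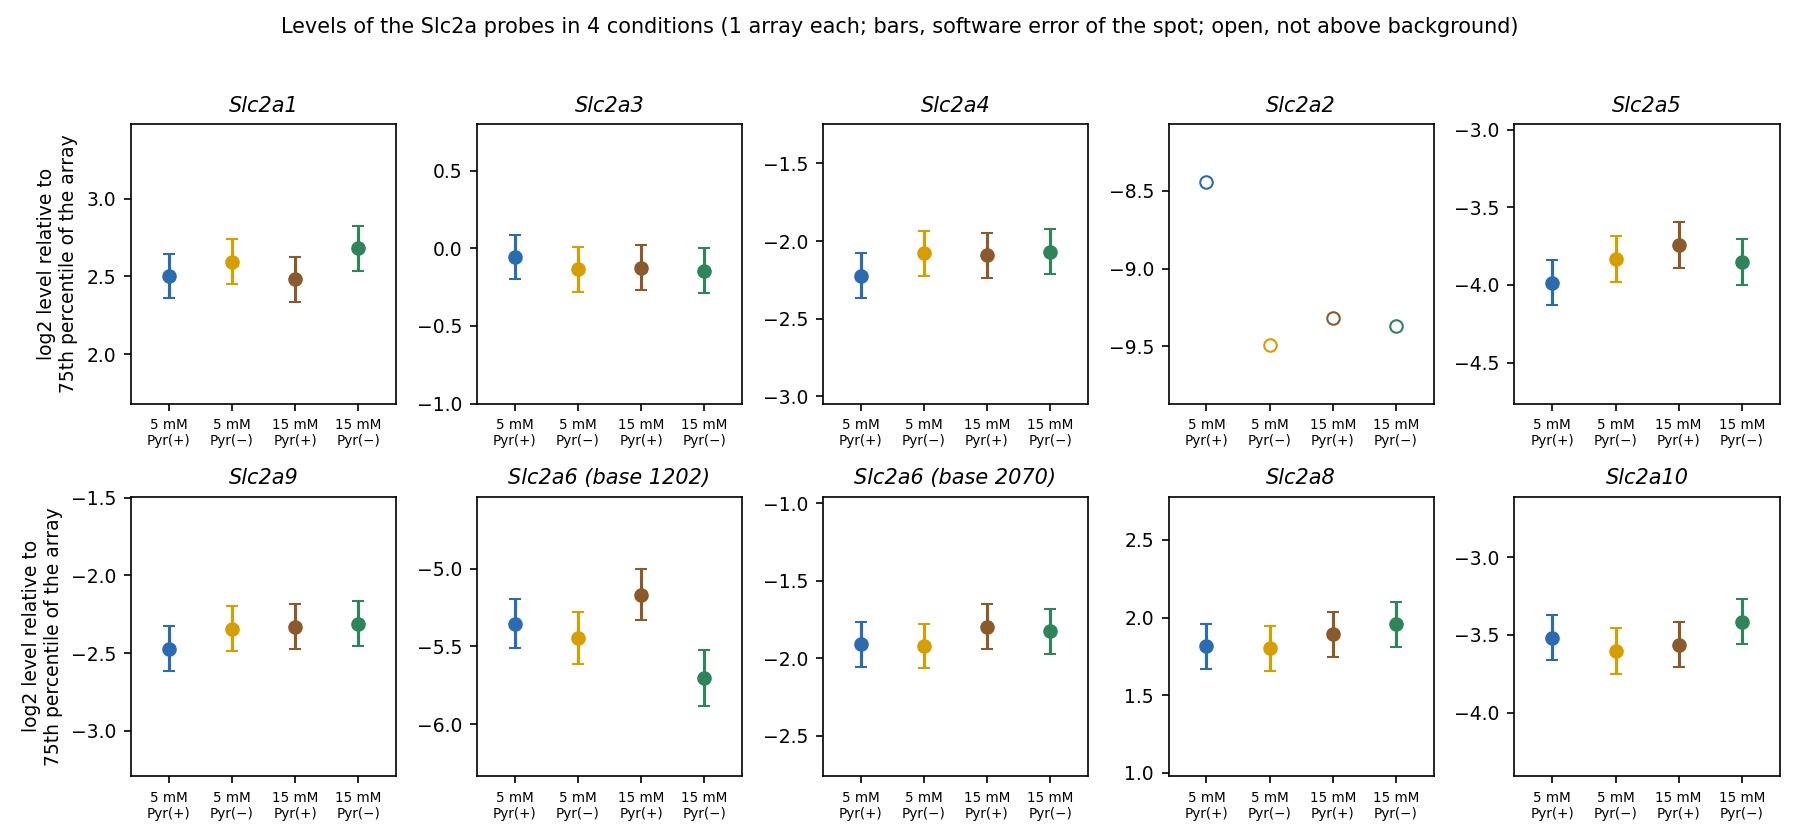
Levels of the 10 member probes in the 4 conditions, as log2 intensity over the 75th percentile of each array (vertical axes of equal span, 1 array per point). Bars are the error that the scanner software gives for a spot, and open circles mark values not well above background. The points of 8 detected probes span less than the height of a bar, those of the Slc2a6 probe at base 1202 spread most among detected probes, and those of Slc2a2 are all open.

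Slc2a1 encodes GLUT1, the transporter for basal glucose uptake in most cell types. Its probe lies at chr4:118809864-118809923 of mm9 on the plus strand, at base 2501 of the transcript. The first 30 of its 60 bases are shown because this probe alone stands for the basal transporter.
Slc2a1: acccacttgtaaatacaccaacaaactcct
The intensity of Slc2a1 at 5 mM glucose was 10134 with pyruvate and 10505 without it, and at 15 mM glucose it was 8915 with pyruvate and 10460 without it. By the main scaling, the level was highest in [Glc 15 mM/Pyr (−)] (2.68) and lowest in [Glc 15 mM/Pyr (+)] (2.48), a difference of 0.20 ± 0.20 (error of the software for both spots, 1 array each). This pyruvate difference at 15 mM glucose was 0.16 to 0.22 over the scalings tried. The condition with the highest level did change, to [Glc 5 mM/Pyr (+)], with scaling to the spike-in RNA. At 5 mM glucose the difference without minus with pyruvate was 0.09 ± 0.20, and it became −0.10 when arrays were scaled to the spike-in RNA. A difference of at least the size seen at 15 mM glucose was found in 33.6% of all measured probes, dim ones included. The probe lay in the highest of 3 equal classes of probes detected on all arrays, by mean level. The SD of all such differences in that class was 0.17.

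Slc2a3 encodes GLUT3, a carrier of high affinity best known from neurons. With pyruvate its intensity was 1720 at 5 mM and 1466 at 15 mM glucose, and without pyruvate it was 1585 and 1476. By the main scaling the levels ranged over 0.09, the narrowest range of the detected probes. The error was 0.20 for the difference between the highest and the lowest, so no order of the conditions can be read by this scaling. With scaling to the spike-in RNA, 15 minus 5 mM glucose with pyruvate was −0.42 for Slc2a3, beside a median of −0.37 over all probes. The array of [Glc 5 mM/Pyr (+)] had the highest value by both scalings, though by the main scaling its distance from the lowest was within the error.

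Slc2a4 encodes GLUT4, the insulin-responsive carrier of fat and muscle. Its probe (chr11:69756073-69756132 of mm9, minus strand) was the only member probe printed in 10 spots on each array, which gives this gene a direct measure of the spread between spots. The first 30 of its 60 bases are shown as the sequence behind these 10 spots.
Slc2a4: gttttgaagaacggatagggagcagaaacc
The mean intensity over the spots at 5 mM glucose was 383 ± 21.7 (SD, n = 10 spots) with pyruvate and 412 ± 22.3 without it. At 15 mM glucose these means were 375 ± 17.3 and 389 ± 28.4. The spots of the 4 arrays overlapped on the scale of intensity. With the level scaled to each array and spots paired by their position, the array without pyruvate exceeded the array with it at 5 mM glucose at 10 of 10 positions, by 0.15 ± 0.04 (mean and SD over positions), yet with scaling to the spike-in RNA the difference of the probe was −0.04. At 15 mM glucose the same comparison gave 0.02 ± 0.09, with 5 positions above and 5 below 0. The 10 spots measured 1 labelled RNA, so their spread leaves out any variation between cultures.

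**Figure D2:**
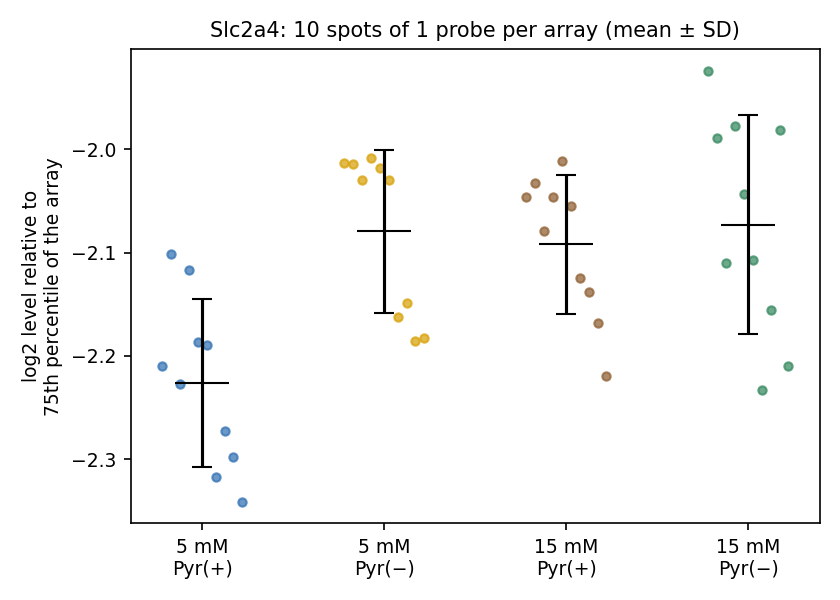
Log2 level of Slc2a4 in each of 10 spots of 1 probe (points, in the order of their position on the array), with the mean and SD over spots, for the 4 conditions with 1 array each. The array of [Glc 5 mM/Pyr (+)] has the lowest mean (−2.23), and the other means lie between −2.09 and −2.07, an order that holds for scaling to the 75th percentile and was not kept with scaling to the spike-in RNA.

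Slc2a2 encodes GLUT2, the low-affinity carrier of liver, pancreatic beta cells and gut. Its intensity was 5.13 in [Glc 5 mM/Pyr (+)] and 2.41 to 2.50 on the other arrays, below the lowest intensity of any detected probe (8.60 to 10.5 across arrays). A weaker flag of the software, for a signal that is positive and significant against background, was set on the first of these arrays and on none of the others. No fold is given, because no value was well above background. Of the hepatocyte markers, Alb was detected on both arrays of 5 mM glucose (61.0 and 68.0) and not on those of 15 mM (2.70 and 2.69), and Apoa1 was detected on none.

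The carriers of other substrates were detected at every condition. Slc2a5, the fructose carrier GLUT5, gave intensities of 113 with and 122 without pyruvate at 5 mM glucose, and of 119 with and 113 without it at 15 mM. Its difference between 15 and 5 mM glucose with pyruvate was 0.24 ± 0.21, the largest of this comparison by the main scaling, and it was −0.11 with scaling to the spike-in RNA. The pyruvate difference of Slc2a5 was 0.15 ± 0.21 at 5 mM and −0.11 ± 0.21 at 15 mM glucose. Slc2a9, which carries urate, gave 322, 343, 318 and 328 in the same order, with a range of levels of 0.16. For Slc2a9 the levels of 3 arrays lay between −2.34 and −2.31, and that of [Glc 5 mM/Pyr (+)] was −2.47, the lowest by the main scaling and the highest with scaling to the spike-in RNA.

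Among the carriers that reside mainly inside the cell, Slc2a6 (GLUT6, found in lysosomes) had 2 probes that disagreed. Both read the same transcript on the minus strand of chromosome 2 in mm9. The probe at base 1202 (chr2:26878631-26878690) and the probe at base 2070 (chr2:26876891-26876950) are each shown by 30 of their 60 bases, since the widest difference of the family rests on one of them. Capitals mark AATAAA, the letters of the common polyadenylation signal, which of this pair only the second holds. These letters also occur in the Slc2a8 probe and in 12.6% of all probes on the array.
Slc2a6, base 1202: tgtggagatcgtgaccctgggggacacagc
Slc2a6, base 2070: actgtttttcaaAATAAAgagctgggccta
The probe at base 1202 gave intensities of 43.7 with and 39.9 without pyruvate at 5 mM glucose, and of 44.5 with and 31.3 without it at 15 mM. The last of these was the lowest, and without minus with pyruvate at 15 mM the difference was −0.54 ± 0.24, or 2.21 times its error. By the main scaling it was the only 1 of the 36 member differences to exceed 2 errors, which did not hold with scaling to the spike-in RNA. The probe lay in the lowest of 3 equal classes of probes detected on all arrays, by mean level, where the SD of all such differences was 0.44. Among all measured probes, 7.62% differed by as much or more between these arrays.

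The probe at base 2070 did not show this difference. It gave 476, 460, 460 and 460, with a pyruvate difference of −0.01 ± 0.20 at 5 mM and −0.03 ± 0.20 at 15 mM glucose. The mean over both probes was −0.28 at 15 mM glucose. Whether the probes read different transcript forms was not tested.

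By the rule set for likeness, the Slc2a6 probe at base 1202 was also compared with 21193 named probes detected on all arrays, by the distance between their levels over the 4 conditions after each probe was centred on its own mean. The nearest were probes of Fam151a (distance 0.03), Wdfy4 (0.04) and Fn1, which encodes fibronectin (0.06), and 27 probes lay within 0.1. The points are 4 arrays that share 1 slide, and this likeness is a description only.

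Slc2a8 (GLUT8), a carrier held in intracellular membranes, read 6297 with and 6072 without pyruvate at 5 mM glucose, and 5937 and 6331 at 15 mM. Its pyruvate differences were −0.01 ± 0.20 at 5 mM and 0.06 ± 0.20 at 15 mM glucose. Slc2a10 (GLUT10), the gene mutated in arterial tortuosity syndrome, gave 156, 143, 135 and 153 in the same order. The pyruvate difference of Slc2a10 was −0.09 ± 0.21 at 5 mM and 0.15 ± 0.21 at 15 mM glucose. For both genes the level was highest in [Glc 15 mM/Pyr (−)] by the main scaling and in [Glc 5 mM/Pyr (+)] with scaling to the spike-in RNA. By the main scaling the whole range (0.15 and 0.19) was below the software error of a single difference. It was above the spread of a difference between repeated spots (0.10).

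**Figure D3:**
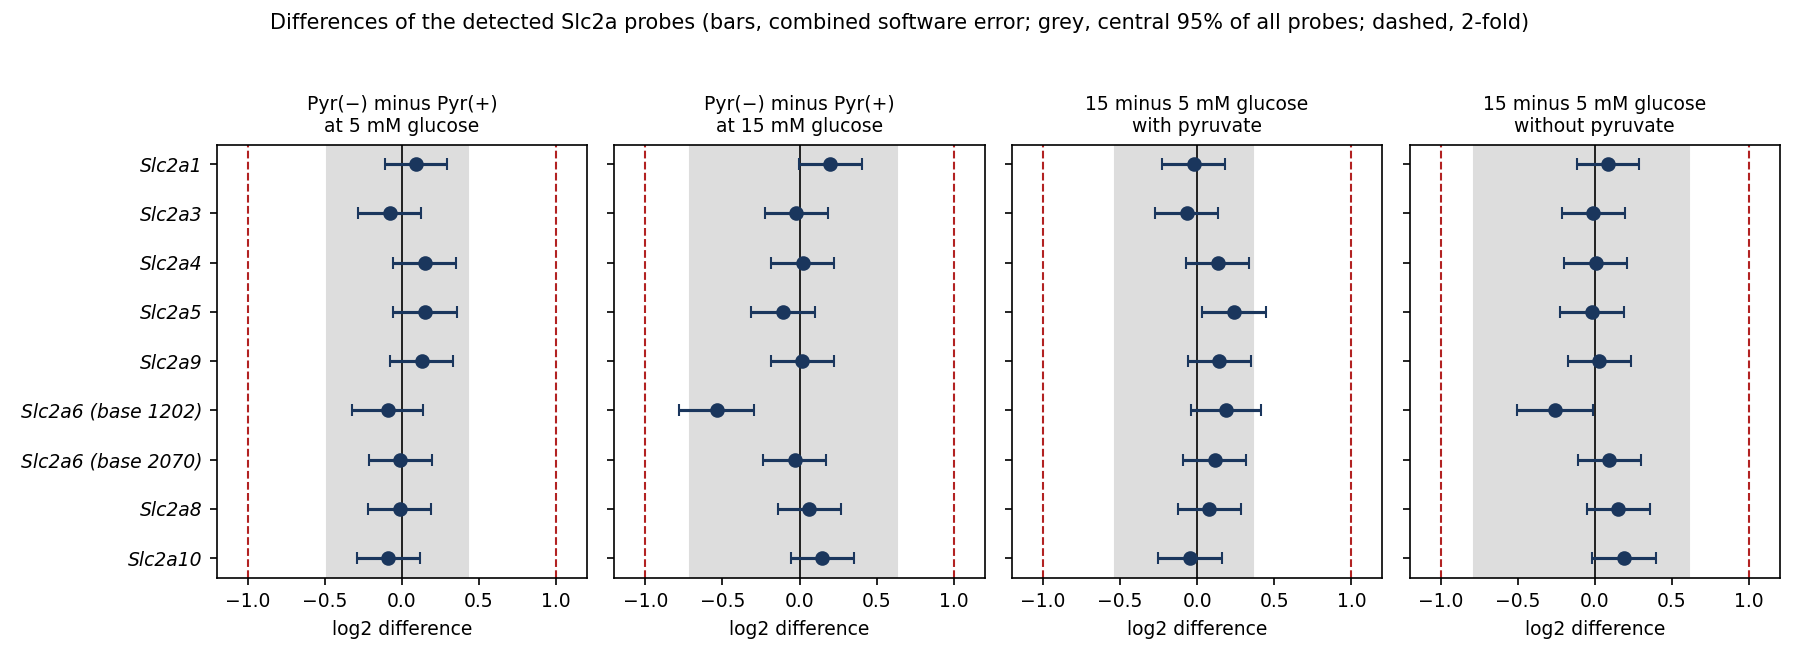
Log2 differences of the 9 detected member probes in the 4 comparisons, with the combined error of the software (bars), the central 95% of all measured probes (grey) and 2-fold (dashed lines). Every point lies inside the grey band, and the Slc2a6 probe at base 1202 is the farthest from 0, at −0.54 without minus with pyruvate at 15 mM glucose.

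Over the family, the median pyruvate difference was −0.01 at 5 mM glucose (range −0.09 to 0.15) and 0.02 at 15 mM glucose (range −0.54 to 0.20). The medians over all measured probes were −0.02 and 0.03. Higher glucose gave a family median of 0.11 with pyruvate (range −0.07 to 0.24) and 0.03 without pyruvate (range −0.26 to 0.19). The medians over all probes were −0.02 and 0.03. With scaling to the spike-in RNA the family medians were −0.24 and −0.17, with all 9 probes below 0 in both comparisons. The medians over all probes then moved as well, to −0.37 and −0.17. The 4 comparisons share arrays in pairs, so these values are not independent of each other. By the main scaling 3 probes were above 0 in both pyruvate comparisons (Slc2a1, Slc2a4 and Slc2a9), 3 were below 0 in both (Slc2a3 and both Slc2a6 probes) and 3 had opposite signs (Slc2a5, Slc2a8 and Slc2a10), whereas in the 5 mM comparison the spike-in scaling put all 9 below 0, and quantile normalization and normexp background correction put 6 and 7 above 0. At 15 mM glucose 5 probes were above 0, and 3 were with scaling to the spike-in RNA or with normexp. Among all measured probes, 44.5% of pyruvate differences were above 0 at 5 mM and 56.0% at 15 mM glucose by the main scaling. With scaling to the spike-in RNA the median pyruvate difference over all probes was −0.21 at 5 mM glucose. By the main scaling, 3 of 36 differences exceeded the error of the software. This error was near 10% of the intensity for most member probes. It was wider than the spread of a difference between repeated spots (0.10), so the count rests on that setting. For the 8 detected probes other than that of Slc2a6 at base 1202, neighbouring conditions by this scaling lay at most 0.13 apart. That gap was less than the software error of any single difference and more than the spread between repeated spots. Neither the count of 3 nor the gap of 0.13 held with scaling to the spike-in RNA. Slc2a3 then gave −0.27 for pyruvate at 5 mM glucose and −0.42 for higher glucose with pyruvate.

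The genes around the transporters gave values on the same scale, with the mean over measured probes for each gene. Of the remaining family members, Slc2a13 (the myo-inositol carrier) was detected, with pyruvate differences of −0.11 at 5 mM and 0.17 at 15 mM glucose, and Slc2a7 was not. Of 7 other hexose carriers, 5 were measured and none reached 2-fold. The largest values were those of dim probes: Slc5a2, the sodium-coupled SGLT2 of the kidney, at −0.53 without minus with pyruvate at 5 mM glucose and 0.74 for higher glucose without pyruvate, and Slc5a9 at 0.56 for pyruvate at 15 mM glucose. For higher glucose with pyruvate the largest was Slc5a10 at −0.30.

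Of 9 genes for hexose phosphorylation and its reversal, 8 were measured and none reached 2-fold. Hkdc1, which encodes a hexokinase-like protein, had the largest difference in each comparison, from 0.31 for higher glucose with pyruvate to 0.55 for pyruvate at 15 mM glucose, with a mean intensity of 22.1 to 36.8. Hk2, the regulated hexokinase, gave −0.05 at 5 mM and −0.14 at 15 mM glucose for pyruvate.

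Of 13 genes for trafficking and turnover of the transporters, all were measured. By the mean over its probes 1 reached 2-fold, for higher glucose without pyruvate, where 2.40% of all measured probes did. This was Txnip, an arrestin-like protein that promotes endocytosis of GLUT1. Its mean intensity over 2 probes was 1126 with and 841 without pyruvate at 5 mM glucose, and 1028 with and 1990 without it at 15 mM. The array of [Glc 15 mM/Pyr (−)] stood above the other 3. Txnip was 1.26 higher at 15 than at 5 mM glucose without pyruvate (1.15 and 1.36 by probe), and 1.06 to 1.27 over the scalings tried. Without minus with pyruvate it gave −0.35 at 5 mM and 0.85 at 15 mM glucose. In the comparison of glucose with pyruvate, Stom had the largest difference of this list, at −0.28 (−0.66 and 0.09 by probe). Its probes also disagreed for pyruvate at 15 mM glucose, with 0.26 and 1.17.

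**Figure D4:**
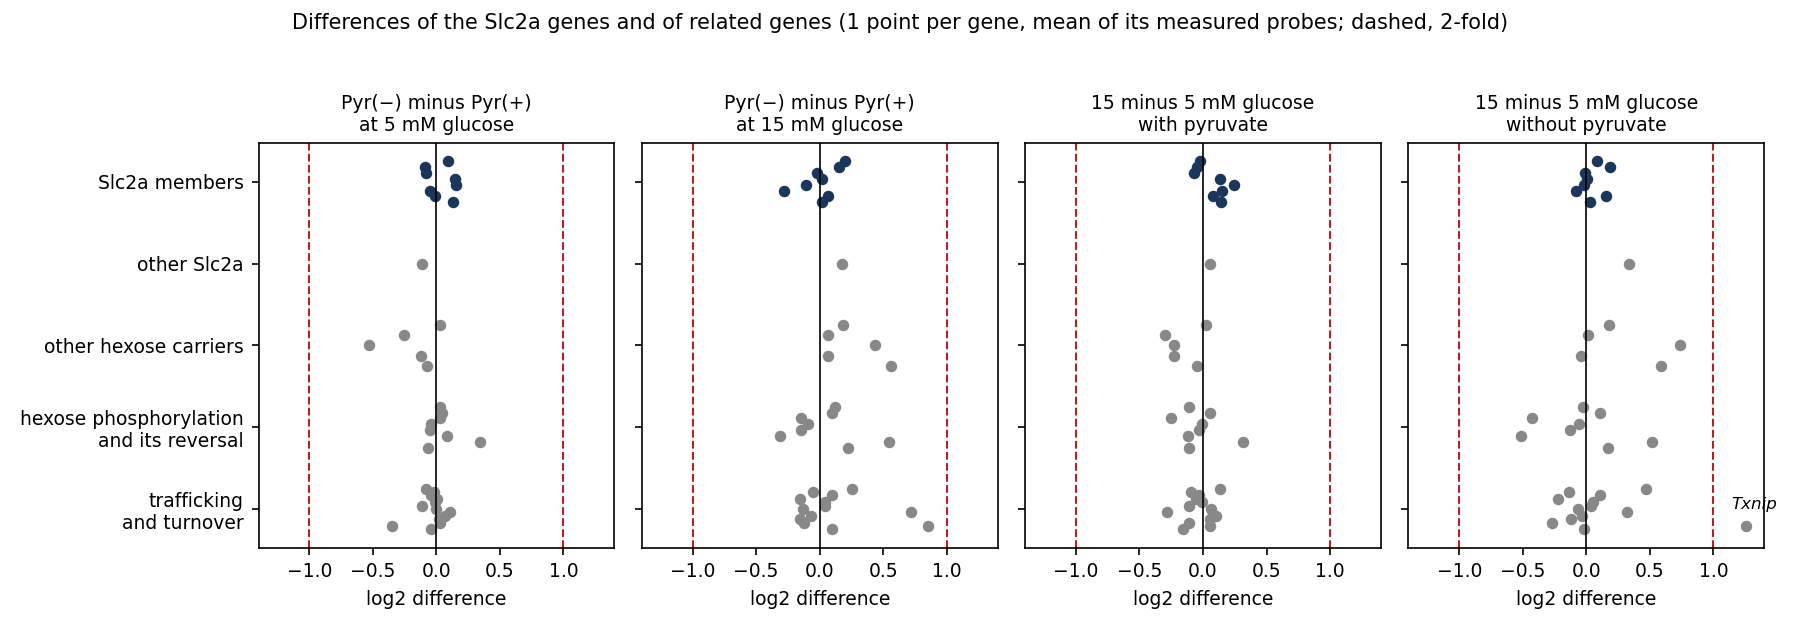
Log2 differences of the measured Slc2a members (dark points) and of related genes (grey points) in the 4 comparisons, 1 point per gene as the mean of its measured probes, with 2-fold as dashed lines. The only point beyond 2-fold is Txnip, at 1.26 between 15 and 5 mM glucose without pyruvate, and the Slc2a members lie between −0.28 and 0.24.

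The 250 bases before the transcription start were read from RefSeq (GRCm38.p6) for Slc2a1, Slc2a2, Slc2a5, Slc2a6, Slc2a8, Slc2a9, Slc2a10 and Slc2a12. Those of Slc2a3 and Slc2a4 were not analysed here. The letters ACGTG or GCGTG, the core of sites bound by hypoxia-inducible factors, were searched on both strands and occurred in 3 of the 8 (Slc2a1, Slc2a6 and Slc2a8) and in 38.6% of all 32851 promoters. CACGTG, an E-box that contains ACGTG, occurred in none of the 8 and in 6.02% of all. The stretch of the Slc2a1 promoter that holds both of its matches, from 61 to 32 bases before the start (chr4:119108684-119108713, plus strand), is shown with the matches in capitals, the first on the opposite strand.
Slc2a1 promoter: CACGCctctcagagtcccgccccggACGTG
A match of letters is a description of sequence and was not tied to any level measured here.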

How the data were processed

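Cy3-labelled cRNA from each of the 4 conditions was hybridized to its own Agilent whole mouse genome array, and all 4 arrays lay on 1 slide. The authors deposited the output of Agilent Feature Extraction 11.5.1.1 (named in the submitters' processing notes), whose processed intensity is corrected for background and not scaled between arrays. They also deposited a table of values that equal this intensity as a ratio to a constant of each array, within 1e-05 at all 44397 features; it was used as an alternative. The deposited flags of the scanner software, with no unit, gave detection and outliers. No count and no sequencing depth exists for arrays, so their number limits the precision.

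Control and outlier spots were removed, repeated spots of a probe were averaged, and each intensity was divided by the 75th percentile of its array before the log2 was taken. Values were compared only where a probe was well above background on both arrays. The error of an intensity is that given by the software (10.0% to 12.5% for detected members). The median SD between spots of a probe printed 10 times was 0.07 to 0.08 on the log2 scale. The lists, markers and members were chosen with earlier results of these data known. Named genes are the members, the gene with the largest difference of each list and any past 2-fold; Hk2, Erbb3, Alb, Apoa1, and the genes cited with them as examples were named after their values were seen. Probe positions are those of the files (mm9). Alternatives were the 75th percentile over probes detected on all arrays, quantile normalization, scaling to 8 of 10 spike-in probes, the deposited ratio, normexp (offset 50), 2 filters on low signal, the brightest probe, a 1.5-fold threshold and another detection flag. The tools were limma 3.58.1, R 4.3.3, pandas 2.3.3, numpy 2.4.6 and Python 3.11.15, and the fold count was tested on simulated data.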

Additional observations from a re-analysis of the deposited data

How the results depend on the processing

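The count of 0 member probes past 2-fold held under every scaling, filter and threshold tried except 1. With no filter on dim probes, 1 probe passed in the pyruvate comparison at 5 mM glucose, that of Slc2a2, which was not well above background on either array. Detection on all 4 arrays stayed at 9 probes with the other flag of the software. Scaling to the spike-in RNA moved the median over all measured probes by −0.19 in the pyruvate comparison at 5 mM glucose, and by −0.35 with pyruvate and −0.20 without it in the comparisons of glucose. The family medians became −0.20, −0.24 and −0.17, and their distance from the median of all probes was the same by construction (0.01, 0.13 and −0.0015). Of 180 recalculated differences of single probes, 148 moved by less than 0.10, the spread of a difference between repeated spots, and 30 changed sign, 18 of these with scaling to the spike-in RNA. The largest difference to change sign was 0.24. The difference of Slc2a6 at base 1202 for pyruvate at 15 mM glucose ranged from −0.58 (quantile normalization) to −0.33 (normexp). No paired analysis was possible because each condition has 1 array. The error of the software for a difference (about 0.20 for most members) is wider than the measured spread between repeated spots, and neither includes variation between cultures.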
